A study of Rattus norvegicus with 24 samples.

Results

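The RNA profiles described here are those of 4 treated rat kidneys in which the transcript of osteopontin (Spp1) was low. Osteopontin is a secreted phosphoprotein that injured and cyst-lining tubular cells produce in large amounts. The 4 kidneys were chosen by a measured value. Of the 18 treated kidneys, those with Spp1 under 1000 CPM (the count of the gene divided by the total of its file and scaled to a common library size) were taken as low-osteopontin kidneys, and the other 14 as high-osteopontin kidneys. The series held 24 kidneys in all, of which 6 came from untreated controls. Since Spp1 picked the kidneys and the genes of a kidney vary together, the difference between low and high is given as a description for every gene, with no test, and the cause of the difference is unknown.

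Tubular cells that are damaged or that line cysts lose parts of the transport and fuel-burning programme of the mature nephron and switch on adhesion, keratin and secreted injury genes. Around them, fibroblasts lay down collagen and matricellular proteins, and macrophages and lymphocytes gather in the interstitium, in long-standing disease also as lymphoid follicles. The healthy proximal tubule reabsorbs most of the filtered solutes, burns fatty acids rather than glucose and makes glucose, whereas the distal segments fine-tune salt, calcium, acid and water.

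All animals were male PKD/Mhm (Cy/+) rats, heterozygous for a missense change in Anks6 that arose in a Sprague Dawley colony and gives a dominant cystic kidney disease. They were killed at 8 months of age, after monthly treatment over 6 months, and RNA was taken from the frozen left kidney. The 6 control animals (Ctrl) went untreated, 6 received medium conditioned by a co-culture of human ABCB5+ skin cells and stimulated THP-1 macrophages (CoCM), 6 received ABCB5+ cells into the peritoneal cavity (i.p.) and 6 into a vein (i.v.). The study's abstract gives the route of the medium as i.p. and its methods as i.v., so this route is not settled. All animals thus shared the Cy allele as labelled. Heterozygous animals had been told from non-cystic ones by palpating the abdomen, and the allele is a single-base change that gene-level counts do not show.

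Total estimated counts were from 9304630 to 13285940 in the low-osteopontin kidneys, from 10209460 to 14075855 in the high-osteopontin kidneys and from 10405757 to 14125457 in Ctrl. Genes with a count numbered 13557 to 13797 in the low kidneys against 13904 to 14163 in the high and 14017 to 14184 in Ctrl, and the 100 most abundant genes of each library took 21.9% to 24.4%, 17.3% to 19.8% and 17.0% to 20.1% of the counts. The low kidneys therefore had fewer detected genes and more concentrated counts than every other kidney. With all libraries thinned to the smallest total, 373 genes in place of 384 were separated as higher and 1297 in place of 1339 as lower (the term is defined with the comparison across all genes). The part of library composition in the other results was not tested.

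By the measure of the rule, Spp1 stood at 333 CPM in the CoCM animal 39, at 378 CPM in the i.p. animal 38, and at 546 and 542 CPM in the i.v. animals 36 and 37. The 14 high-osteopontin kidneys ranged from 6609 to 13170 CPM, with a median of 9524 CPM, and Ctrl from 7310 to 11169 CPM, with a median of 8604 CPM. The highest value under the threshold was thus 546 CPM and the lowest above it 6609 CPM, with no kidney between them. A low kidney occurred in 1 of 6 CoCM, 1 of 6 i.p. and 2 of 6 i.v. animals and in 0 of 6 Ctrl, and in 4 of 18 treated animals, or 22.2% (exact 95% interval from 6.41% to 47.6%). The exact interval for Ctrl reached up to 45.9%. The low kidneys carried the consecutive animal numbers 36 to 39, out of 26 to 43 among the treated and 1 to 24 among Ctrl. Anything shared by neighbouring animals and the osteopontin level therefore cannot be told apart.

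In what follows, levels are CPM after scaling the libraries by the TMM method, differences are of mean log2 CPM (low minus high), and the 4 low kidneys are always given in the order CoCM animal 39, i.p. animal 38, i.v. animal 36 and i.v. animal 37. On that scale Spp1 was at 370.1, 426, 640.5 and 669.5 CPM. Havcr1, which encodes the kidney injury molecule KIM-1 of damaged proximal tubules, was at 4.32, 4.86, 17.5 and 4.19 CPM, against 57.2 to 273 CPM (median 129) in the high kidneys and 91.1 to 167 CPM (median 119.8) in Ctrl. The i.v. animal 36 had the highest Havcr1 of the 4, and it still lay under every other kidney. Lcn2, the gene of the iron-binding injury protein NGAL, was at 7.97, 9.93, 10.7 and 10.5 CPM, against 85.6 to 259 CPM (median 137) and 81.6 to 292 CPM (median 117). Both markers, which the threshold did not use, were low in the same 4 kidneys and in no other. The mean log2 level of Havcr1 was 2.69 ± 0.97 (SD, n = 4) against 6.97 ± 0.63 (SD, n = 14), and that of Lcn2 3.30 ± 0.19 (SD, n = 4) against 7.11 ± 0.43 (SD, n = 14).

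**Figure D1:**
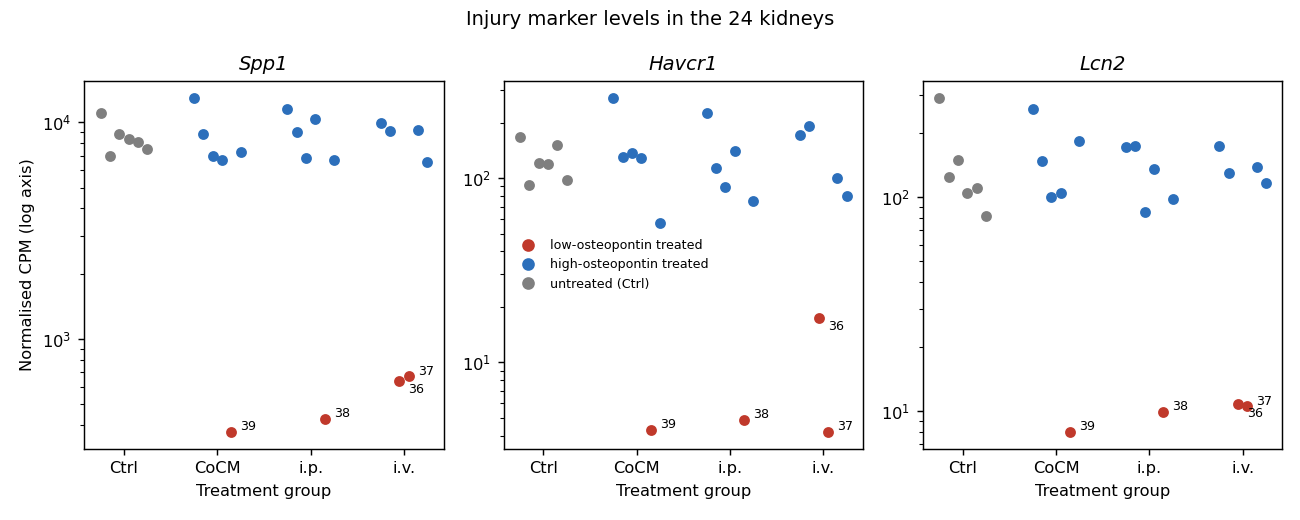
Levels of Spp1, Havcr1 and Lcn2 in each of the 24 kidneys by treatment group, in TMM-scaled CPM on a log axis, 1 point per kidney, with the low-osteopontin kidneys in red and their animal numbers beside them. For Havcr1 the red points lie between 4.19 and 17.5 CPM and all others at 57.2 CPM or more.

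Across all 12778 genes that passed the low-count filter, the first principal component carried 56.3% of the variance. The low kidneys scored 97.4, 80.8, 87.1 and 86.3 on it, and the other 20 kidneys from -53.0 to 11.5. A gene was called separated when the range of its log2 CPM in the 4 low kidneys did not overlap that of the 14 high kidneys and the means differed by at least 1. By this rule 384 genes (3.01% of those tested) were higher and 1339 (10.5%) were lower in the low kidneys, 1723 or 13.5% in all. These shares describe kidneys picked by 1 of the genes and are used below only as the background for each gene list. The median difference over all genes was 0.02.

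The lower genes differed by more than the higher ones. The median difference was -1.90 among the 1339 lower genes and 1.34 among the 384 higher genes, and a difference of at least 2 was reached by 593 lower and 48 higher genes. Ctrl sided with the high kidneys. For 1291 of the 1339 lower and 337 of the 384 higher genes, all 6 controls lay beyond the range of the low kidneys on the side of the high ones, and the median difference of high from Ctrl was -0.07 and 0.09 in these sets. The balance between directions rests on the scaling. With libraries scaled by file totals only, 167 genes were separated as higher and 1732 as lower, so that the higher genes made up 8.79% of the separated ones in place of 22.3%, and the median of all genes moved to -0.23. All 167 higher genes were also separated with TMM scaling, and all 1339 lower genes also with file totals. Without the i.p. animal 38, which had the smallest library, 643 genes were higher.

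**Figure D2:**
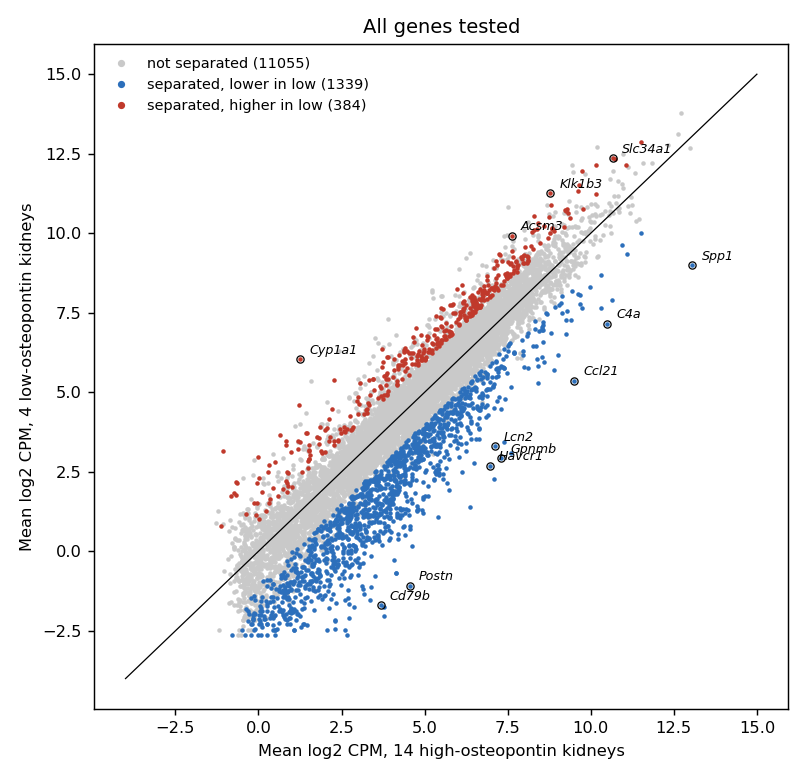
Mean log2 CPM of each of the 12778 genes in the 14 high-osteopontin kidneys (x axis) and in the 4 low-osteopontin kidneys (y axis), with the 384 genes separated as higher in red, the 1339 separated as lower in blue and the line of equal levels in black. Blue points fall farther from the line than red ones.

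Most tubular injury genes were lower in the low kidneys. Of 28 tested members of a tubular injury and dedifferentiation list, 20 were separated as lower and 0 as higher, with a median difference of -1.64 against 0.02 over all genes. The list holds Spp1, which the rule fixed, and without it 19 of 27 were lower and the median was -1.62. Apart from the 3 markers, these included the adhesion molecules Vcam1, Icam1 and Cd44, the keratin Krt19, the intermediate filament gene Vim, Clu, Timp1, Sox4, Tnfrsf12a, Myc, Tpm1, the annexins Anxa1 and Anxa2, and S100a6, S100a10 and S100a11. Cd44, a hyaluronan receptor of regenerating tubules, ranged from 21.5 to 23.98 CPM in the low and 122 to 199 CPM in the high kidneys. Vcam1, an adhesion molecule of tubules that fail to recover, ranged from 9.79 to 32.4 CPM and 47.7 to 135 CPM. Not separated were Krt8, Krt18, Sox9, Cdkn1a, Gdf15, Itgb6, Plaur and Cd24, of which Gdf15, a stress hormone, differed by 0.13 and Sox9, a transcription factor of tubular repair, by -0.47. List members given as overlapping were picked as examples after their values were seen. In kidney RNA, fewer cells of a type and less RNA per cell cannot be told apart, and this holds for every list below.

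The mean of the centred log2 CPM of the injury genes, taken as a score, was -1.57, -1.42, -1.41 and -1.55 in the low kidneys, from 0.02 to 0.71 in the high kidneys and from -0.06 to 0.78 in Ctrl. Without Spp1 the scores were -1.49, -1.34, -1.35 and -1.50, against 0.01 to 0.68 in the high kidneys. Scores of 21 of the 45 lists did not overlap between low and high kidneys, 12 of them lower and 9 higher in the low kidneys, and 47 of the 749 list genes tested stood in more than 1 list.

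Genes of the scar matrix were lower throughout. All 27 tested members of the list of fibrillar collagens and fibrosis matrix had a lower mean in the low kidneys, 20 were separated, and the median difference was -2.02. Postn, which encodes periostin, a matricellular protein of active fibrosis, was at 0.114, 0.484, 0.665 and 0.186 CPM, that is between 1 and 7 counts in a library, against 12.5 to 53.4 CPM (median 20.8) in the high kidneys and 15.2 to 123 CPM (median 20.998) in Ctrl. Postn was thus close to the floor of detection in all 4 low kidneys and well counted in every other. Tnc (tenascin-C, deposited around activated fibroblasts) was at 0.683, 0.606, 2.09 and 2.79 CPM against 12.7 to 42.03 CPM (median 21.4), and Lum (lumican, a collagen-binding proteoglycan) at 0.797, 0.606, 3.42 and 1.21 CPM against 6.25 to 16.6 CPM (median 11.8). The i.v. animals had the higher values for both. Col1a1 and Col3a1, the main fibrillar collagens, differed by -2.33 and -2.85, Fn1 (fibronectin) by -1.79 and the collagen crosslinking enzymes Lox and Loxl2 by -2.37 and -1.95. Ccn2, a growth factor target often raised in fibrosis, differed by -0.38 and Vcan (versican) by -0.22, and both overlapped.

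Among ligands and latency proteins of the transforming growth factor beta pathway, Tgfb1, Tgfb2, Tgfb3, Ltbp2, Ltbp4 and Inhbb were separated as lower, together with the repressor Tgif1, which made 7 of 20 tested genes, with a median of -0.67. Ltbp2, a microfibril-associated latency protein, was at 8.76, 12.8, 10.2 and 11.2 CPM against 111 to 274 CPM (median 165) in the high kidneys. The low kidneys lay far under the lowest high kidney. The receptors Tgfbr1, Tgfbr2 and Tgfbr3 and the signal transducers Smad2, Smad3 and Smad4 differed by between -0.68 and 0.00 and were not separated. Of the basement membrane list 3 of 13 genes were lower, with a median of -0.67. Lamb3 was among them, as was Col4a1, a collagen of every basement membrane, at 193, 244, 309.9 and 333 CPM against 573 to 1215 CPM (median 828). In the list of myofibroblasts, pericytes and smooth muscle, 5 of 15 genes were lower and 0 higher (median -0.69). The 5 were Dcn, Fap, Gli1, S100a4 and Tagln, and the other 10 were not separated. Dcn (decorin) was at 23.9, 56.1, 103 and 159 CPM against 191 to 646 CPM (median 367), and the level was lowest in the CoCM animal 39 and highest in the i.v. animal 37. Acta2, a gene of both myofibroblasts and vessel smooth muscle, differed by -0.19 and overlapped. The contractile genes Myh11 and Cnn1 and the pericyte gene Rgs5 differed by 0.18, -0.43 and -0.04 and overlapped too.

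Most genes of the macrophage, lymphocyte, antigen presentation, chemokine and complement lists were lower, whereas the small neutrophil list was mixed. Of 20 macrophage and monocyte genes 18 were separated as lower (median -2.01), of 18 T, B and NK lymphocyte genes 14 (median -2.90), of 17 MHC class II and antigen presentation genes 14 (median -1.90), of 24 chemokines and cytokines 14 (median -1.53) and of 16 complement genes 10 (median -2.35). None of these genes was separated as higher. Of 5 neutrophil genes 1 was lower (Csf3r) and 1 higher (Mmp9, a gelatinase), and the scores overlapped. Gpnmb, a lysosomal glycoprotein of lipid-laden and scar-associated macrophages, was at 5.69, 9.93, 8.45 and 6.51 CPM, against 91.8 to 215 CPM (median 162) in the high kidneys and 106 to 295 CPM (median 194) in Ctrl. Trem2, a lipid-sensing receptor of the same cells, was at 1.37, 1.70, 1.42 and 1.21 CPM against 7.98 to 25.4 CPM (median 12.9), and Mrc1, the mannose receptor of resident macrophages, at 2.96, 2.79, 5.03 and 2.32 CPM against 17.8 to 55.97 CPM (median 30.4). For each of these 3 genes the highest low kidney lay under the lowest high kidney, and Mrc1 was highest in the i.v. animal 36.

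B cell genes were at the edge of detection. Cd79b, a signalling chain of the B cell receptor, was at 0, 0.727, 0.0950 and 0.0929 CPM in the low kidneys, and Ms4a1, which encodes CD20, at 0.114, 0, 0.285 and 0 CPM, against 6.45 to 24.7 CPM (median 12.1) and 1.98 to 12.5 CPM (median 7.13) in the high. For both genes at least 1 low kidney had no count, with a floor of 3 counts that corresponds to 0.212 to 0.322 CPM in the series, so no fold is given. Among T cell genes, Cd5 was at 1.25, 0.848, 1.71 and 1.58 CPM against 12.6 to 24.5 CPM (median 18.4), and Cd3e, a chain of the T cell receptor complex, differed by -3.20 and Cd8a, the co-receptor of cytotoxic T cells, by -1.46. The cytotoxic genes Gzmb, Gzmk and Nkg7 overlapped.

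The lymphoid chemokines Ccl19 and Ccl21, which draw lymphocytes and dendritic cells through the receptor CCR7, were at 3.07, 6.78, 3.42 and 6.41 CPM and at 32.3, 49.1, 48.2 and 37.2 CPM, against 70.4 to 255 CPM (median 128) and 426 to 1099.5 CPM (median 739) in the high kidneys. Neither gene overlapped. Ccl2, the main attractant of monocytes, was at 3.19, 4.72, 7.03 and 8.36 CPM against 25.9 to 54.3 CPM (median 39.6). By contrast Cxcl12, Ccl28, Cxcl2 and Il18 differed by -0.26, -0.16, -0.27 and -0.37 and overlapped. C3, the central complement component, was at 4.67, 10.4, 17.2 and 20.4 CPM against 52.1 to 206 CPM (median 99.9) in the high kidneys, and the CoCM animal 39 had the lowest level. C4a and C4b were lower by 3.34 and 4.51 on the log2 scale, but these near-identical copies can share reads and their split is uncertain, as is that among the class II genes. Of 23 interferon-stimulated genes 4 (17.4%, against 10.5% of all genes) were lower (Irf1, Gbp2, Gbp5 and Mx1) and 0 higher, with a median of -0.69. The antiviral genes Isg15 and Mx2 differed by -0.23 and 0.01.

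**Figure D3:**
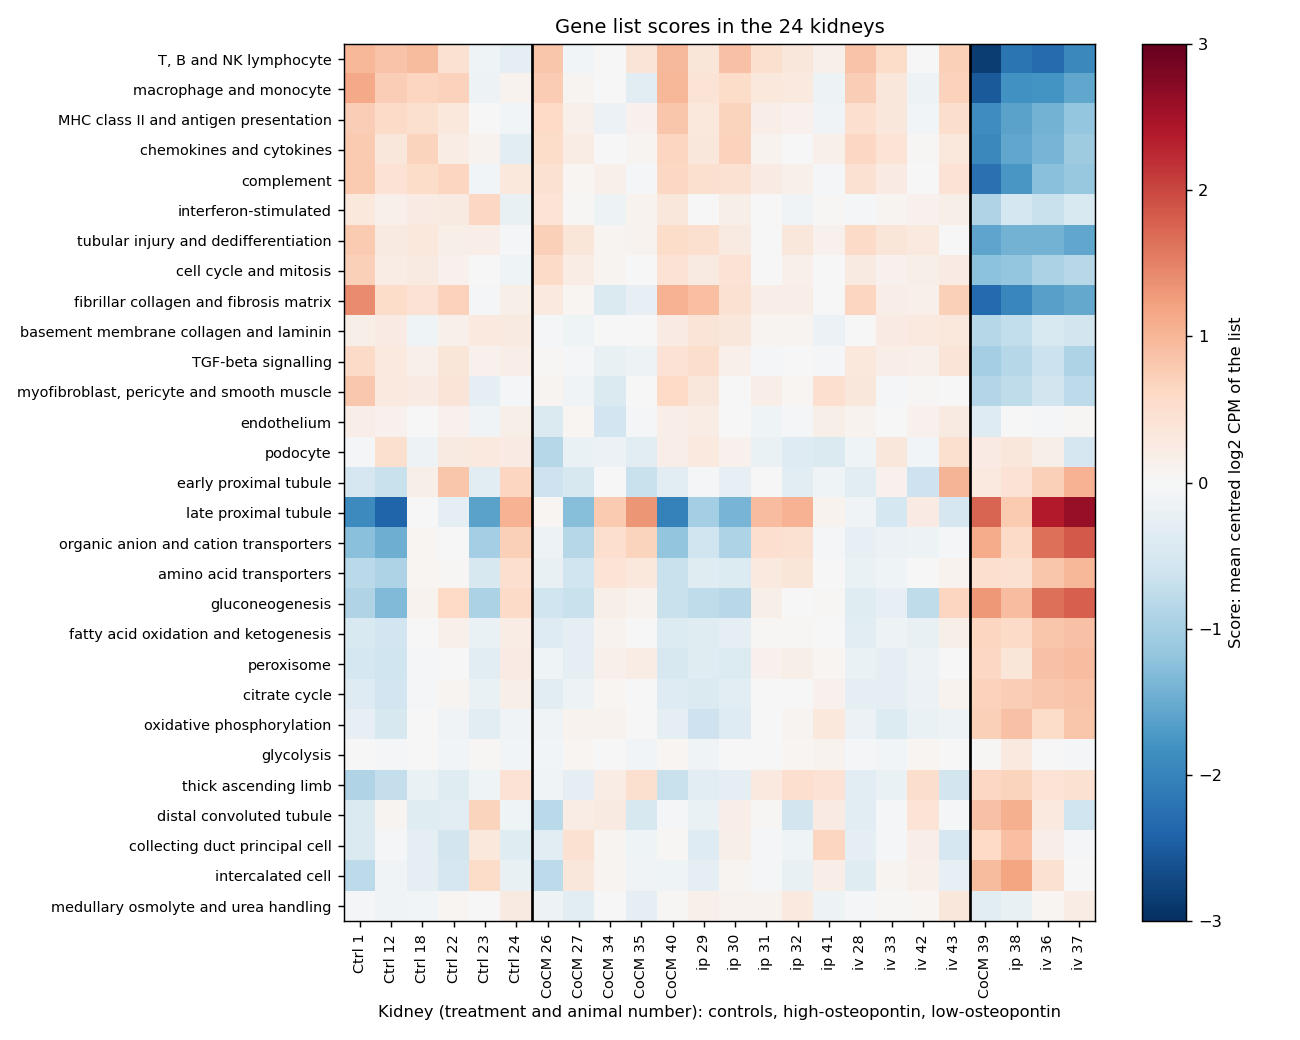
Scores of 29 gene lists (rows) in the 24 kidneys (columns, named by treatment and animal number), as the mean centred log2 CPM of the genes of a list, blue for low and red for high, with black lines between the 6 controls, the 14 high-osteopontin and the 4 low-osteopontin kidneys. In the 4 columns at the right the injury scores lie between -1.57 and -1.41, and the citrate cycle scores between 0.70 and 0.86.

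Proliferation genes were lower as well. Of 25 cell cycle and mitosis genes, 15 were separated as lower and 0 as higher, with a median of -1.33. Top2a, a topoisomerase of dividing cells, was at 2.05, 1.09, 3.23 and 2.79 CPM against 8.09 to 16.6 CPM (median 11.9), and Mki67, the gene of the proliferation antigen Ki-67, ranged from 2.30 to 5.58 CPM in the low and from 13.2 to 31.98 CPM in the high kidneys. Tyms, which makes thymidylate, and Ccnd1, a cyclin of growth entry, differed by 0.30 and 0.16 and overlapped. Of 23 immediate early genes, 4 (17.4%, against 10.5% of all genes) were lower (Egr2, Nr4a3, Fosl1 and Klf6) with a list median of -0.21. The classic members Fos, Jun and Egr1, which rise within minutes of handling or stress, differed by 0.36, 0.11 and -0.01 and overlapped.

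On the other side stood genes of the proximal tubule, most of which overlapped between low and high kidneys. Of 14 genes of the early proximal tubule 3 (21.4%) were separated as higher and 1 (7.14%) as lower (median 1.11). Of 11 genes of the late proximal tubule 1 (9.09%) was higher (median 2.05). Over all genes 3.01% were higher and 10.5% lower. Slc34a1, the main sodium-phosphate cotransporter of the brush border, was at 5175, 4049, 5554 and 6610.3 CPM in the low kidneys, against 933 to 3114 CPM (median 1592) in the high kidneys and 673 to 3064 CPM (median 1482) in Ctrl. The lowest low kidney exceeded the highest high kidney, and the i.v. animal 37 had the highest level. Slc22a6, the organic anion transporter OAT1 of the basolateral membrane, was at 970.1, 979, 1143 and 1319 CPM against 181 to 653 CPM (median 315). Slc2a2, the basolateral glucose transporter GLUT2, went the other way and was at 52.1, 36.3, 62.96 and 71.6 CPM against 111 to 199 CPM (median 154), a difference of -1.48. It was the only transporter among the early proximal tubule genes to be separated as lower.

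Transport genes followed by substrate. Of 23 organic anion and cation transporters 6 were higher (Slc22a4, Slc22a5, Slc22a6, Slc22a18, Slc47a1 and Abcb1a) and 0 lower, with a median of 1.42. Slco1a1, a steroid conjugate carrier, was at 321, 139, 405 and 368 CPM against 2.99 to 176 CPM (median 44.1), and overlapped through the i.p. animal 38 although its difference of 2.95 exceeded those of all 6. Of 21 glucose, sodium and monocarboxylate transporters 7 were higher and 1, Slc2a2, lower (median 0.49). Slc13a3, a dicarboxylate carrier, was at 1085, 1097, 1354 and 1319.8 CPM against 250.2 to 877 CPM (median 344), and Slc9a3, the brush border sodium-proton exchanger NHE3, at 147, 114, 164 and 166 CPM against 31.7 to 89.4 CPM (median 52.1). The sodium-glucose cotransporter genes Slc5a1 and Slc5a2 differed by 0.81 and 0.18 and were not separated.

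The shares over all genes were 3.01% higher and 10.5% lower. Of 19 amino acid transporters 2 (10.5%) were higher and 1 (5.26%) lower (median 0.62). Of 19 phosphate, calcium and vitamin D genes 3 (15.8%) were higher and 1 (5.26%) lower (median 0.59). The last was Trpv6, an epithelial calcium channel, at 2.39, 1.82, 1.52 and 0.651 CPM against 13.5 to 31.7 CPM (median 25.2) in the high kidneys, whereas S100g, which encodes the calcium-binding protein calbindin-D9k, was at 4.10, 3.39, 5.13 and 4.55 CPM against 0.291 to 1.68 CPM (median 0.830). These calcium genes thus stood on opposite sides, each without overlap. Of 16 genes of the endocytic receptor machinery 1 (6.25%), Amn (amnionless, the partner of cubilin), was higher. With file totals only, 2 organic ion transporters and 5 of the glucose, sodium and monocarboxylate group remained higher, and the median of the endocytic list turned from 0.20 to -0.05.

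Genes of glucose production and of mitochondria were higher as lists. Of 10 gluconeogenesis and fructose genes 7 were separated as higher, with a median of 1.80 and file totals leaving 5. G6pc1, the glucose-6-phosphatase that releases free glucose, was at 579.7, 504, 601 and 544 CPM, against 60.03 to 451 CPM (median 141) in the high kidneys and 99.2 to 358 CPM (median 175) in Ctrl. The 4 low values were close together while the high kidneys spread over a wide range. Fbp1 (fructose-1,6-bisphosphatase) was at 1054, 916, 1438 and 1854 CPM against 211 to 714 CPM (median 318). Pck1, the entry enzyme of the pathway, differed by 2.20 but overlapped.

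All 48 oxidative phosphorylation genes and all 24 citrate cycle genes had a higher mean in the low kidneys, with medians of 0.88 and 0.90, and 4 of each list were separated (8.33% and 16.7%), in file totals 1 of each. Cycs, the electron carrier cytochrome c, was at 1602, 1246, 1880.5 and 2089.9 CPM against 362 to 1088 CPM (median 592), and Idh2, a mitochondrial isocitrate dehydrogenase, at 1008, 1223, 899 and 999 CPM against 333 to 628 CPM (median 469). Of 29 fatty acid oxidation genes 7 were higher and 0 lower (median 0.81). Acadm, which oxidises medium-chain fatty acids, was at 571, 535, 704 and 784 CPM against 176 to 375 CPM (median 245), and Ppara, the nuclear receptor of this programme, differed by 0.92 and overlapped. Of 29 peroxisome genes 4 were higher (among them Amacr, Dao and Hacl1; median 0.70), and of 28 cytochrome P450 and glutathione genes 7 were higher and 2 lower (median 1.12). Of 18 glycolysis genes 0 were higher and 2 (11.1%) lower, close to the 3.01% and 10.5% of all genes, with a median of 0.29. The lower ones were the hexokinases Hk2, at 4.32, 5.33, 4.18 and 4.18 CPM against 8.54 to 17.5 CPM (median 11.6), and Hk3, the hexokinase of myeloid cells.

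In the distal nephron most genes had a higher mean in the low kidneys and overlapped. Of 12 thick ascending limb genes 2 (16.7%) were higher and 1 lower (median 0.80, 10 of 12 means higher), of 14 intercalated cell genes 2 (14.3%) were higher (median 0.76, 13 of 14 means higher), against 3.01% of all genes, and of 8 distal convoluted tubule and 12 principal cell genes 0 in either direction (medians 0.77 and 0.45). Egf, the epidermal growth factor precursor made by the thick ascending limb and distal tubule, was at 5155, 6242, 4759.8 and 2785 CPM, against 520.4 to 2202 CPM (median 1201) in the high kidneys and 586 to 2034 CPM (median 1099) in Ctrl. Umod, the gene of uromodulin, the most abundant urinary protein, was at 6702, 7596, 6591 and 9327 CPM against 1067 to 6117 CPM (median 3103). Neither gene overlapped, and Egf was lowest of the 4 in the i.v. animal 37, where Umod was highest. With file totals only, neither gene nor any intercalated cell gene was separated.

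**Figure D4:**
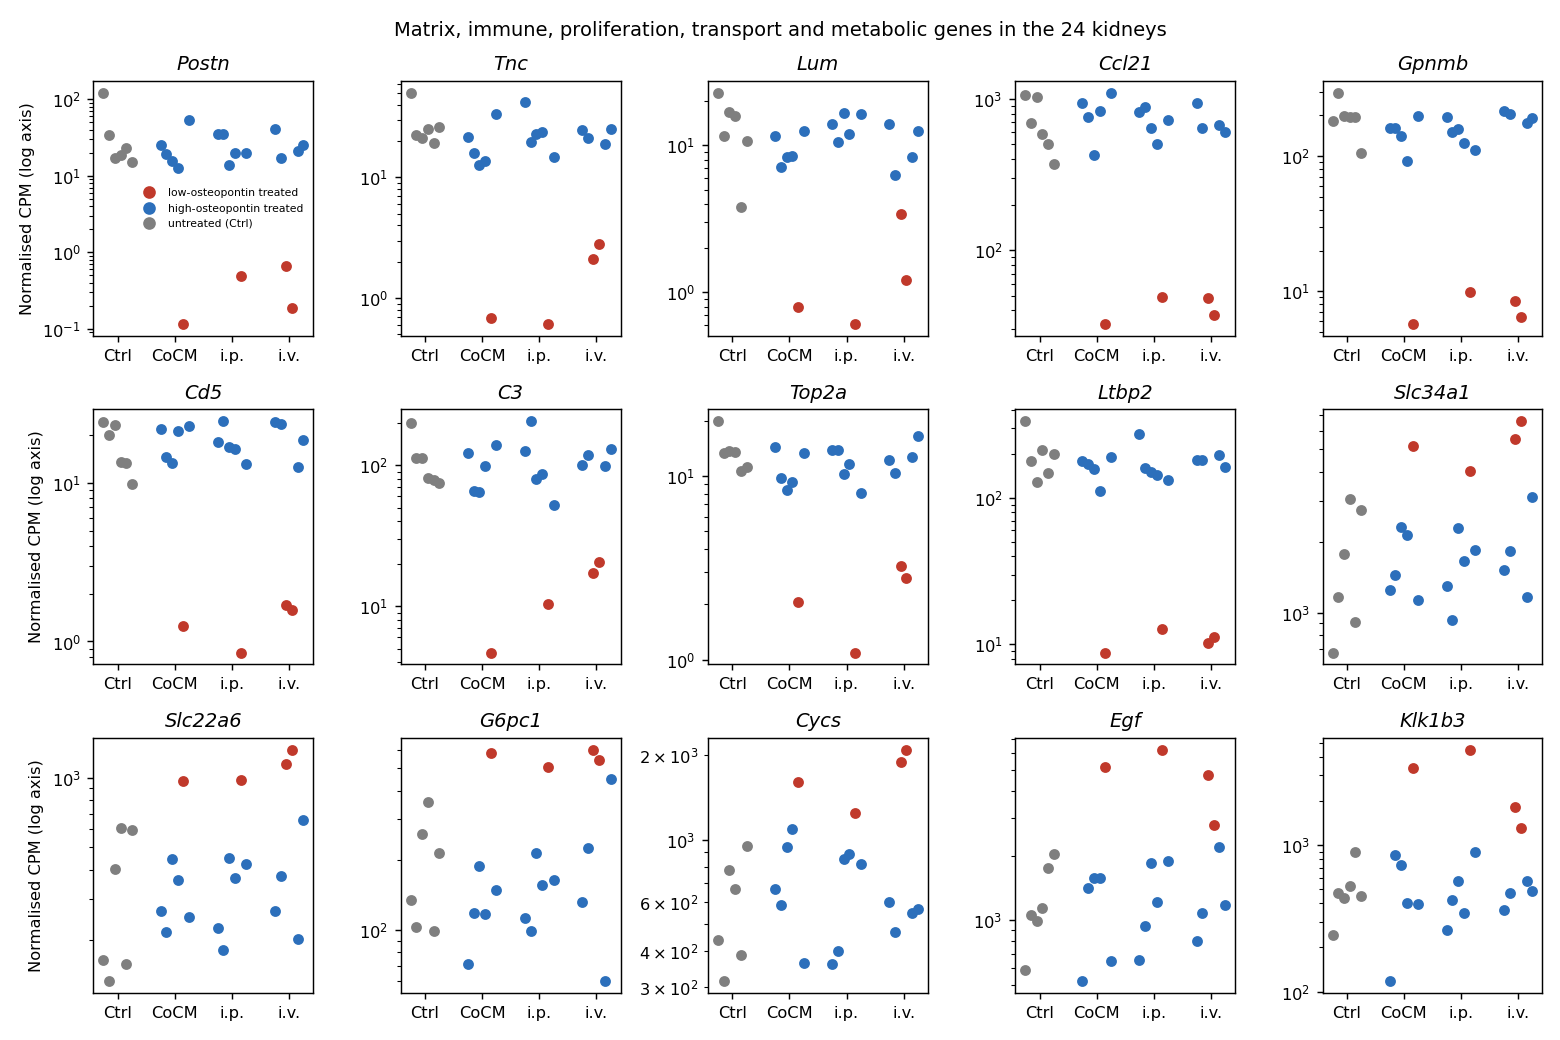
Levels of 15 genes in the 24 kidneys by treatment group, in TMM-scaled CPM on log axes, 1 point per kidney, with low-osteopontin kidneys in red, high-osteopontin kidneys in blue and Ctrl in grey. Red points lie under all others for the matrix, immune and proliferation genes (Postn, Tnc, Lum, Ccl21, Gpnmb, Cd5, C3, Top2a and Ltbp2) and above all others for Slc34a1, Slc22a6, G6pc1, Cycs, Egf and Klk1b3.

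Among separated genes with a mean of at least 10 CPM over the treated kidneys, the 15 with the largest difference in each direction were taken. Cyp1a1, the inducible cytochrome of aryl hydrocarbon metabolism, led the higher ones. It was at 44.04, 15.6, 136 and 195 CPM, against 0.150 to 15.3 CPM (median 3.18) in the high kidneys. The i.v. animals were the highest and the i.p. animal 38, the lowest of the 4, lay just above the high kidneys and within Ctrl, which ranged from 0.265 to 17.04 CPM. Klk1b3, a tissue kallikrein, was at 3332, 4478, 1804 and 1297 CPM against 118 to 902 CPM (median 448), and the related Klk1c9 had a difference of 3.12, although reads of these close paralogs are hard to assign. Acsm3, a mitochondrial medium-chain acyl-CoA synthetase, was at 1234, 1040.2, 1075 and 647 CPM against 103 to 341 CPM (median 204), and Miox, the inositol oxygenase of the proximal tubule, at 3572, 2807, 4427 and 5535 CPM against 339 to 1845 CPM (median 896). The rest of the 15 were Cyp2c24, Cyp2d2, Upb1, Gsta2, Mbl1, Nat8, Dmrtc1c1, Rdh16, Serpinc1 and Slc16a4, with differences from 2.15 to 2.66.

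Among the 15 that were lower by most, Aoc1, which degrades histamine and polyamines, had at most 4 counts in a low kidney and was at 6.45 to 27.6 CPM (median 12.6) in the high kidneys. Car3, a carbonic anhydrase of muscle and fat, was at 0.797, 1.70, 27.2 and 0.836 CPM against 46.02 to 405 CPM (median 75.02), so that the i.v. animal 36 stood apart from the other low kidneys. Il24, a cytokine of the interleukin-10 family, was at 0.797, 0.848, 0.285 and 0.186 CPM against 8.06 to 30.2 CPM (median 18.03), and Serpina3n, an acute phase protease inhibitor, at 0.910, 1.21, 5.98 and 2.13 CPM against 21.8 to 70.3 CPM (median 42.1). The others included Spib, Alox15b and Msln, beside Postn, Cd79b, Ccl19, Ccl21, C4b, Gpnmb and Havcr1 given above.

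Promoter sequences of 10323 of the 12778 genes were found in RefSeq (assembly GRCr8), among them 314 of the 384 higher and 1008 of the 1339 lower genes, and the 250 bases before the annotated start were searched on both strands. Genes of both sets had fewer CG dinucleotides than the rest, with a median of 10 in the higher and 8 in the lower genes against 15 over all genes. The AP-1 motif TGANTCA occurred in 5.10% of the higher, 7.84% of the lower and 4.57% of all promoters, and GAGGAAGT, an ETS motif bound by the myeloid factor PU.1, in 0.955%, 4.86% and 2.30%. The hepatocyte nuclear factor motif HNF1, GTTAAT followed by any base and ATT, occurred in 5 of 314 higher (1.59%), 1 of 1008 lower (0.0992%) and 0.262% of all promoters, and that of HNF4, CAAAGTCCA, in 1.91%, 0.496% and 0.320%. The motif TATAAA stood in 8.92%, 11.8% and 7.16%. A match is a string of letters and no shown binding site. The promoters of Spp1, which defined the kidneys, of Gpnmb, a lower gene with an AP-1 match, and of G6pc1, a higher gene with an HNF1 match, are shown from 5′ to 3′ on the strand of the gene, with matches in capitals. They lie at chr14:5619805-5620054 (minus strand), chr4:79340878-79341127 (plus strand) and chr10:86807409-86807658 (plus strand) of GRCr8.
Spp1: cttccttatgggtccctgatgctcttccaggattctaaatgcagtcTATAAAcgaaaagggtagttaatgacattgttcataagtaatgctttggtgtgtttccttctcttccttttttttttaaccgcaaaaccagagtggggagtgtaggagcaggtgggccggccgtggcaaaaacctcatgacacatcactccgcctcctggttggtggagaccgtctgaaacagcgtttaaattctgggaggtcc
Gpnmb: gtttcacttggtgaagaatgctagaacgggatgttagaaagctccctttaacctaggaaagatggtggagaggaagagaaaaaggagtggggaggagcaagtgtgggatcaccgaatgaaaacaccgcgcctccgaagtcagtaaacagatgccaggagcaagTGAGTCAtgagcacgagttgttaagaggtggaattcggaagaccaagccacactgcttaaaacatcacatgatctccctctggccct
G6pc1: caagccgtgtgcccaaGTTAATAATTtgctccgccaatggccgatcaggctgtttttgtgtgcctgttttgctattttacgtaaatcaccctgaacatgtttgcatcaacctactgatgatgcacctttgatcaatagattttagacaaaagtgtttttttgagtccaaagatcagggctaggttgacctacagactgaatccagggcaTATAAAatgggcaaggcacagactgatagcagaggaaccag
The capitals in Spp1 are TATAAA, those in Gpnmb the AP-1 motif, and those in G6pc1 the HNF1 motif first and TATAAA second.

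The 4 low kidneys were not alike in every nephron segment. On the second principal component (11.1% of the variance) the i.v. animal 37 scored -23.2 and the others 11.1 to 12.7, all within the range of the other kidneys. On the third (8.46%) the i.v. animals 36 and 37 scored 13.7 and 11.3, and the i.p. animal 38 and the CoCM animal 39 scored -33.3 and -21.4. Scores of the late proximal tubule were 1.76, 0.80, 2.38 and 2.61, and from -2.04 to 1.32 in the high kidneys. The i.v. animals were the highest, and the i.p. animal 38 lay within the high kidneys. In the distal convoluted tubule the scores were 0.87, 1.07, 0.30 and -0.59, against -0.80 to 0.40, and for intercalated cells 0.95, 1.19, 0.46 and 0.02, against -0.79 to 0.34. Here the i.p. animal 38 and the CoCM animal 39 were above the high kidneys and the i.v. animal 37 within them.

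Single genes showed the same pairs. Slc7a13, an aspartate and cystine carrier of the last proximal segment, was at 1583, 550.4, 2992 and 4334 CPM, and Slc22a13, a urate and nicotinate carrier, at 7.97, 2.42, 35.7 and 87.8 CPM, against 13.1 to 1330.2 CPM (median 279.6) and 1.14 to 4.96 CPM (median 2.02) in the high kidneys. The i.v. animals led in both. Slc12a3, the thiazide-sensitive cotransporter of the distal convoluted tubule, was at 4077, 5301, 2869 and 1659 CPM against 1151 to 2651 CPM (median 1818), and Calb1, a calcium-binding protein of the same segment, at 1392, 1536, 759 and 399 CPM against 192 to 865 CPM (median 476). In these the order was turned round, with the i.v. animal 37 lowest. Of the 10 genes with the widest range among the low kidneys, 9 (Cyp1a1, Slc7a13, Slc22a13, Slc22a7, Slc23a3, Rbp4, Ihh, Sspo and Mcoln2) were highest in the i.v. animal 37 and lowest in the i.p. animal 38. The tenth, Mrpl1, a mitochondrial ribosomal protein, was at 2.07, 34.6, 26.5 and 26.8 CPM and from 0.0377 to 24.6 CPM in the high kidneys. The i.v. animals 36 and 37 differ from the other low kidneys in treatment and in animal number. They also differ in library size, with 12362456 and 13285940 counts against 9759947 in animal 39 and 9304630 in animal 38. Treatment, number and library size cannot be told apart from 1 another here.

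**Figure D5:**
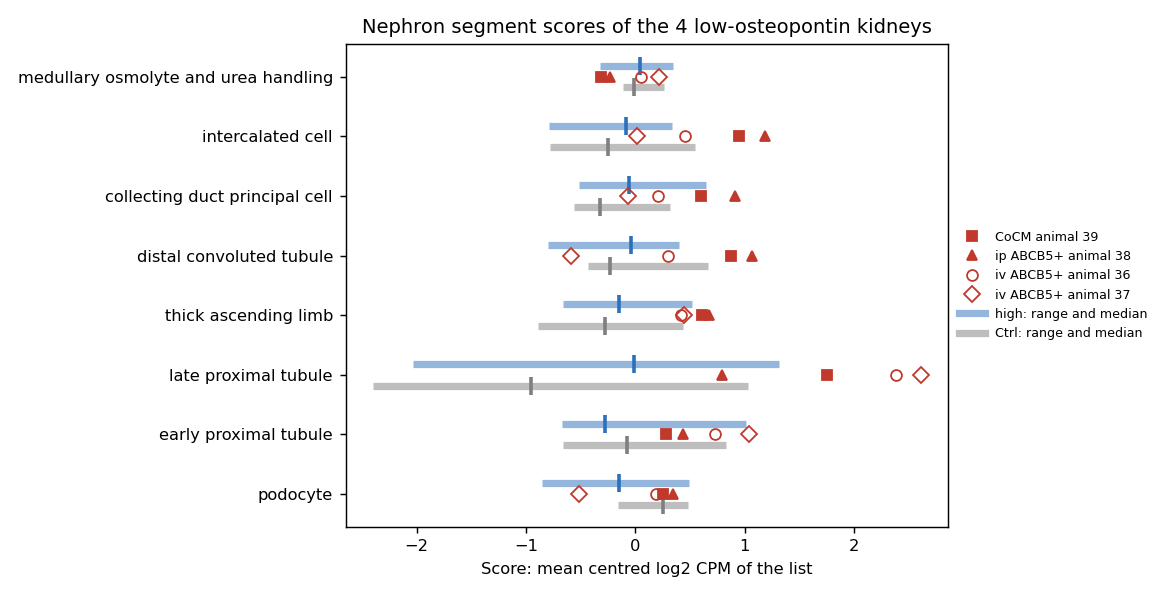
Nephron segment scores (x axis, mean centred log2 CPM of a list) of the 4 low-osteopontin kidneys, with each red symbol 1 kidney, beside bars that span the range of the high-osteopontin kidneys (blue) and Ctrl (grey) with a tick at the median. The i.v. animals (open symbols) are to the right in the late proximal tubule, at 2.38 and 2.61, and the CoCM animal 39 and i.p. animal 38 (filled symbols) in the distal segments.

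Lists of other cell types overlapped between low and high kidneys. Of 13 podocyte genes and 16 endothelial genes 0 were separated (medians 0.41 and -0.21), likewise of 10 medullary genes (median -0.14). The summed level of 8 red blood cell genes (7 tested) was 858 to 1547 CPM, 355 to 3377 CPM and 292 to 10294 CPM in the low, high and Ctrl kidneys. The 1 separated gene, Slc4a1, is also the anion exchanger of intercalated cells. For 7 adipose genes (4 tested) the sums were 42.9 to 132 CPM, 32.97 to 598 CPM and 33.7 to 161 CPM. For 8 adrenal genes (4 tested) they were 8.83 to 22.5 CPM, 15.3 to 29.9 CPM and 18.5 to 31.8 CPM, with 1, Cyp11a1, lower. For 7 urothelial genes (3 tested) they were 2.05 to 15.004 CPM, 2.74 to 57.8 CPM and 3.67 to 113 CPM. In the 45 lists every member with data was counted in at least 1 kidney, but not all members passed the low-count filter.

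Most genes of the lists that bear on the cystic disease itself were not separated. Over all genes, 3.01% were higher and 10.5% lower. Anks6, which carries the Cy change, was at 73.1, 54.5, 82.2 and 118 CPM, against 49.2 to 70.8 CPM (median 61.2) in the high kidneys and 45.3 to 71.2 CPM (median 52.9) in Ctrl, and Pkd1 (polycystin-1) at 66.7, 67.8, 79.9 and 71.5 CPM against 74.3 to 140.3 CPM (median 104). Both overlapped with the high kidneys. In the list of polycystins and the inversin compartment 1 of 15 genes (6.67%) was higher, and 0 with file totals. It was Umod, the thick ascending limb gene given above, which belongs to neither class. No other tested gene of the list was separated. The list median was 0.13, or -0.13 with file totals. Of 25 genes of cAMP signalling and chloride secretion 3 (12%) were lower (Adcy7, Kcnn4 and Ptger2), close to the 10.5% of all genes. The list median was 0.09, or -0.17 with file totals. Adcy7, an adenylyl cyclase of blood cells, was at 0.683, 1.33, 1.90 and 2.32 CPM against 7.70 to 25.8 CPM (median 15.1). Of 13 renin-angiotensin genes 2 (15.4%) were higher (Enpep and Agtr1b, median 0.55). Of 16 hypoxia genes 1 (6.25%) was higher (Ankrd37, median 0.18, or -0.08 with file totals). Of 11 EGF family genes 1 (9.09%) was higher (Egf, median 0.16, or -0.10 with file totals). Of 30 kidney epithelial transcription factors 0 were higher and 1 (3.33%), Elf3, lower (median 0.51).

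The treatment groups were then compared with Ctrl as labelled, with edgeR's quasi-likelihood F-test and Benjamini-Hochberg adjustment over the 12778 genes, to see what the low kidneys do to those comparisons. In all 24 kidneys, 1 gene (0.00783%) differed between CoCM and Ctrl, and 0 in the i.p. and i.v. groups, with 1523 (11.9%), 226 (1.77%) and 738 (5.78%) genes at an unadjusted p under 0.05. DESeq2 called 78, 0 and 1 genes. The CoCM gene was Ovca2, a serine hydrolase gene that overlaps Dph1 in GRCr8 so that reads may be shared, with a log2 fold change of 0.58 and an adjusted p of 0.0218, and 0.54 with an adjusted p of 0.0992 once the low kidneys were left out. It was not separated between low and high. Without the 4 low kidneys, 0 genes were called in each group, and 2169, 178 and 152 had an unadjusted p under 0.05.

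In the i.v. group, which held 2 low kidneys, 69 of the 738 genes remained under 0.05 without them, in the i.p. group 102 of 226 and in the CoCM group 1340 of 1523. Of the 738 genes of the i.v. group 96 (13.0%) were separated between low and high, against 13.5% of all genes, and of the 1523 and 226 genes of the CoCM and i.p. groups 20 and 5. The median log2 fold change of the 1339 lower genes against Ctrl moved from -0.43 to -0.05 in the i.v. group when the low kidneys were left out, from -0.27 to -0.08 in the CoCM group and from -0.30 to -0.11 in the i.p. group. That of the 384 higher genes moved from 0.70 to -0.01, from 0.35 to 0.05 and from 0.32 to 0.06. Both gene sets were chosen by how these same kidneys differed from the other treated ones. Moves towards 0 without them follow from that choice and are no test. For Spp1 itself the i.v. fold change was -0.49 ± 0.69 (SE, n = 6 against 6, edgeR adjusted p = 0.790) with all animals and 0.04 without the low kidneys. For Slc34a1 it was 0.93 ± 0.49 (SE, edgeR adjusted p = 0.673) and 0.14. Spp1 set the rule and Slc34a1 is 1 of the 384 higher genes, so these moves follow from the choice as well.

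The 6 Ctrl kidneys had no part in the rule, and their Spp1 spanned only 7310 to 11169 CPM. Within them, the slope of each gene on log2 Spp1 was tested with edgeR over 12084 genes. No gene passed (0 called, 0.0%), the smallest adjusted p was 0.533, and 1024 genes (8.47%) had an unadjusted p under 0.05, while DESeq2 called 28 genes, 14 of them separated between low and high. Of the 1254 lower genes tested, 1148 (91.5%) had a slope above 0, against 50.2% of all genes, and of the 351 higher genes 335 (95.4%) had a slope below 0, against 49.8%. Lcn2 had a slope of 2.74 and Havcr1 of 1.41 log2 units per log2 unit of Spp1, Postn of 4.19 and Slc34a1 of -2.95, whereas Gpnmb had a slope of 0.06. The Ctrl animal 1, which had the highest Spp1 and stood apart in Lcn2, weighed on these shares. The slopes of single genes are given only with this animal included. Without animal 1 the shares were 71.6% and 76.9%, against 53.4% and 46.6% of all genes. Over all controls left out in turn they ranged from 71.6% to 94.7% and from 76.9% to 97.7%. These shares are over genes that vary together in 6 animals and carry no test.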

How the data were processed

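RNA of 24 left kidneys of rats was sequenced on the BGISEQ-500, 1 library per animal. For each kidney the authors deposited estimated counts per gene and TPM per gene. The submitters' processing notes name rn6, Trim Galore 0.6.4 and kallisto 0.4.6. The study's methods name a human transcript annotation package, which conflicts with the rat build rn6, and which transcript-to-gene table was used could not be settled. Gene names were matched by Entrez ID to RefSeq (GRCr8), for 17179 of 17334 IDs. Estimated counts were rounded and analysed with edgeR 4.0.16 in R 4.3.3 after filterByExpr and TMM scaling, with log2 CPM at a prior count of 2. DESeq2 1.42.0 was an alternative, as were other scalings and filters, log2(TPM + 1), thinned counts, within-treatment differences and each low kidney left out. Replicates are animals. The label groups and the Spp1 slope within Ctrl were tested by edgeR's quasi-likelihood F-test with Benjamini-Hochberg adjustment at 0.05, and the low and high kidneys were described without a test. Intervals and floors cover counting error only. The kidneys and the 45 gene lists were chosen with earlier results of these data known, and 826 of 861 list members were in the files. Named genes were the 3 markers, the 15 largest separated differences in each direction at a mean of at least 10 CPM, up to 4 genes of each list by size with separated ones first, and the 10 genes of widest range among the low kidneys. Other genes named were picked after their values were seen. The pipeline was tested on simulated data. Some named genes that met the rule are not reported here.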

Additional observations from a re-analysis of the deposited data

Results flagged for a closer look

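In groups of 6 animals, a sample was set apart when its gap to the nearest other was more than 0.625 of the range of the group (Dixon's critical value). Of 48 groups of values tested, 11 had such a sample. Chance gives about 1 in 20, but 9 of the 11 were kidneys chosen by their Spp1 on measures that hold or vary with Spp1, so their number follows from the choice and is no test. The CoCM animal 39 had 13651 genes detected (other CoCM animals 13986 to 14128), a score of 97.422 on the first principal component (others -45.115 to 7.5472), an injury score of -1.5715 (0.089053 to 0.70545) and a lymphocyte score of -2.8542 (-0.080862 to 0.97541). The i.p. animal 38 scored 80.829 on the first component (other i.p. animals -36.069 to 3.3108), -1.4222 for injury (0.022158 to 0.47222), -1.9647 for fibrosis matrix (0.022485 to 0.89267), -1.8177 for macrophages (-0.14182 to 0.5613) and -2.1983 for lymphocytes (0.14713 to 0.87817). The i.v. group held 2 low kidneys, so that neither could stand alone. In Ctrl, animal 23 had a total count of 1.0406e+07 (others 1.3321e+07 to 1.4125e+07) and animal 1 had Lcn2 at 291.54 CPM (others 81.566 to 149.44 CPM).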

How the results depend on the processing

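The number of genes separated as higher depended on the scaling. It was 384 with TMM, 167 with file totals, 137 on log2(TPM + 1), 1464 when any difference without overlap counted, and 363 to 643 with 1 low kidney left out in turn, the highest without the i.p. animal 38. The 1339 lower genes became 1732 with file totals and 1994 when any difference counted, and stayed within 1.5 times under every alternative. Median-ratio size factors gave 354 higher genes, thinning to the smallest library 373, means within treatments 362 and no low-count filter 348. Of the values of gene lists under the alternatives 354 moved by less than the spread and 52 by more, and of those of named genes 1676 and 106. The sign turned with file totals for the medians of 6 lists near 0 (endocytic receptors, polycystins, cAMP, EGF, hypoxia and red blood cells) and for 4 named genes that were not separated (Hbb, Epb42, Adipoq and Cyp11b2), and for no separated gene named. DESeq2 called 78 genes between CoCM and Ctrl, 1 between the i.v. group and Ctrl and 28 for the slope on Spp1 within Ctrl. In the edgeR fit without the low kidneys the CoCM count went from 1 to 0. The cause of these shifts was not tested. No paired analysis was possible because each animal number occurs in 1 group only. Genes with 0 to 3 counts in the low kidneys are limited by depth, and their fitted differences depend on the prior count.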

Other observations

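Further genes, chosen after their values were seen, belong to the same 4 kidneys. Cr2, the complement receptor of B and follicular dendritic cells, had no count in the low kidneys and ranged from 2.74 to 18.6 CPM in the high. Ccr7, the receptor for Ccl19 and Ccl21, ranged from 0.114 to 0.279 CPM in the low and 3.45 to 10.1 CPM in the high kidneys, and Ltb, the lymphotoxin gene that organises lymphoid tissue, from 0.797 to 1.39 CPM and 9.54 to 24.2 CPM. Slpi, a secreted protease inhibitor, ranged from 4.67 to 8.24 CPM in the low and 60.6 to 168 CPM in the high kidneys, and Socs3, a feedback inhibitor of cytokine signalling, from 2.16 to 4.84 CPM and 20.4 to 67.01 CPM. None of these ranges overlapped.

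Among genes that were higher, Alpl, the alkaline phosphatase of the brush border, ranged from 445 to 914 CPM in the low and 95.7 to 255 CPM in the high kidneys. These are values of kidneys picked by Spp1 and carry no test.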
